A study of Homo sapiens with 8 samples.

Results

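The comparison described here is AIRE induction without etoposide: open chromatin in 2 libraries of doxycycline-induced cells (Dox) against 2 libraries of uninduced cells (Control), out of 8 libraries in the series. It covers all 256141 windows of the deposited table, each 150 bp wide and starting every 50 bp, which merged over gaps of 100 bp or less into 35741 regions. AIRE, the autoimmune regulator, is a nuclear protein best known from medullary thymic epithelial cells, where it supports the expression of a broad range of tissue-restricted genes and so contributes to the deletion of self-reactive T cells. It is known to act late in transcription, at DNA breaks made with topoisomerases and at stalled RNA polymerase, rather than by binding one fixed DNA motif. FAIRE-seq isolates DNA that is not held in crosslinked nucleosomes, so a high count marks a stretch of chromatin that was open in many of the fixed cells.

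All cells were AIRE-Tet, a Tet-On Advanced HEK293 line (an embryonic kidney-derived cell line) that carries inducible human AIRE. The cells are not thymic, and every library, Control included, comes from this one transgenic line. Dox cells received 1.5 μM doxycycline, and Control cells received neither doxycycline nor etoposide. The other 4 libraries, used where stated, came from uninduced cells given 2 μM etoposide, a topoisomerase II inhibitor, for 24 h (Etop) and from induced cells given the same after 24 h of AIRE induction (DoxEtop). How long AIRE had been induced at the harvest of the Dox cells is not given in the sources used here. The labels call the 2 libraries of each group independent biological replicates. Neither AIRE protein nor AIRE RNA was measured in these libraries. There were no doxycycline-treated cells without the transgene, so AIRE and doxycycline itself cannot be told apart.

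Column totals were 8275911 and 6787276 counts in Control and 5169600 and 4489871 in Dox, so the induced libraries were the shallower ones. Every window had at least 111 counts summed over the 8 libraries. A region's level is given below as CPM, its counts over non-overlapping windows scaled to the library's sum over all such windows. A region was called when Simes' p over its windows, from edgeR's quasi-likelihood F test, passed 0.05 after Benjamini-Hochberg adjustment over all 35741 regions. Fold changes are Dox against Control, so a negative log2 value is less open chromatin signal in Dox.

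The Control libraries differed from each other in the direction of the comparison. Over all regions, log2 levels of Control replicate 1 correlated with Dox replicate 1 (Pearson's r = 0.889) as closely as with Control replicate 2 (r = 0.883), and with Dox replicate 2 at r = 0.863. Control replicate 2 correlated with the Dox libraries at r = 0.792 and r = 0.758. The Dox libraries correlated with each other at r = 0.884. These values are across 35741 regions that share libraries and depth, and are descriptive. Results below for the lower regions, the segments, some bands and the long arm of chromosome 19 are therefore also given against each Control library alone. Shares per chromosome and medians by width or by distance are given with both Control libraries together only.

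Called changes were almost all losses. Of the windows, 1961 were lower (0.766%) and 44 higher (0.0172%) at an adjusted p under 0.05, while the median log2 fold change over all windows was 0.05. Of the regions, 589 were called lower (1.65%) and 6 higher (0.0168%), and the median over all regions was -0.0044. The 589 lower regions had a median log2 fold change of -2.05, with the 10th and 90th percentiles at -3.21 and -0.51. Their median width was 350 bp, the same as that of all regions, and their median level was 18.5 CPM against 17.5 CPM. The share called lower was larger among regions over 1 kb wide, as given below. Over the whole table, both Dox levels lay below both Control levels in 23.9% of regions and above both in 22.5%, so non-overlap by itself was about as frequent in either direction. The calls depended on single libraries. Without Control replicate 1 the counts were 1038 lower and 21 higher regions, and 563 of the 589 (95.6%) were among those 1038. Without Control replicate 2, Dox replicate 1 or Dox replicate 2, no window and no region was called, although 10824, 23001 and 16195 windows had an unadjusted p under 0.05. DESeq2 called 12 regions lower and limma-voom 0.

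In the 589 lower regions Control replicate 1 lay between the other Control library and Dox. It was below Control replicate 2 in 547 of them (92.9%), against 50.8% of all regions. Relative to the mean of the 8 libraries, the median log2 level was 0.38 in Control replicate 1, 1.25 in Control replicate 2, -0.79 in Dox replicate 1 and -0.89 in Dox replicate 2. The Etop libraries stood at 0.92 and 0.65, and the DoxEtop libraries at -0.83 and -0.29. Thus all 4 induced libraries had medians below 0 and all 4 uninduced ones above 0. The mean of Dox was below Control replicate 1 in 96.9% of the lower regions, by a median of -1.36 (quartiles -1.99 and -0.68), and below Control replicate 2 in 99.5%, by a median of -2.34 (quartiles -3.01 and -1.20). Over all regions the corresponding medians were -0.024 and -0.018. Because the Control libraries chose these regions, the values are a description of them.

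**Figure D1:**
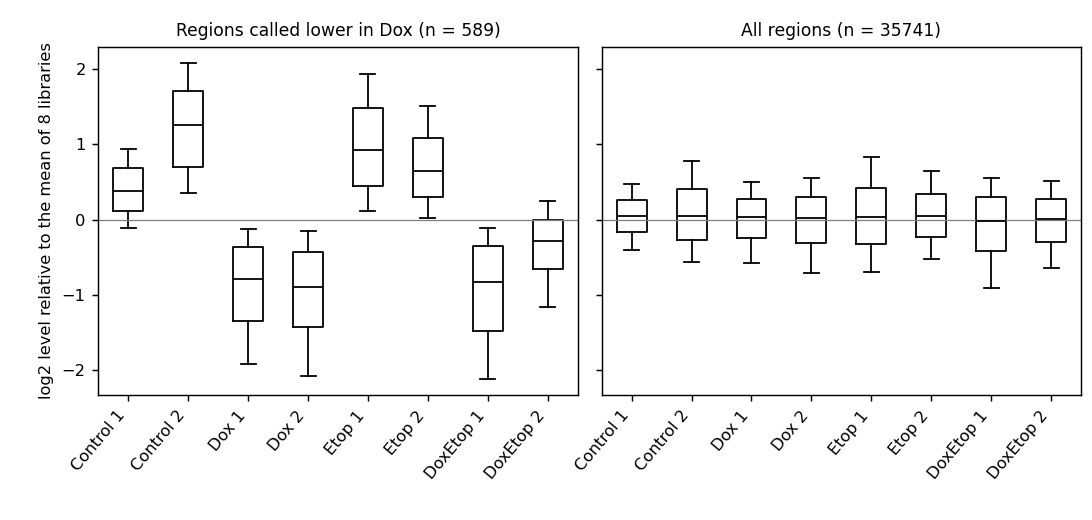
Log2 level of each library relative to the mean of the 8 libraries, for the 589 regions called lower in Dox (left) and all 35741 regions (right). Lines in the boxes are medians, boxes span the quartiles and whiskers the 10th and 90th percentiles; in the left panel Control 1 (0.38) sits between Control 2 (1.25) and the Dox libraries (-0.79 and -0.89).

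Among the 275 called regions with a level above the median region and no overlap between Dox and Control, the 15 with the strongest fall are named here. They were 300 to 600 bp wide, lay on 8 chromosomes, and 5 of them were on chromosome 1. Their Control levels ran from 8.39 to 66.7 CPM and their Dox levels from 0 to 8.82 CPM. Every window was called in 8 of the 15. Control replicate 1 was below Control replicate 2 in all 15. Coordinates are hg19, as in the deposited table, which names no genes; no annotation of that build was used, so no gene is assigned to a region.

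The strongest loss was at chr1:226735451-226735750 in band 1q42. Its level was 8.39 and 58.2 CPM in Control (26 and 151 counts) and 0 in both Dox libraries. Set against a floor of 3 counts per library, it was at least 19.9-fold lower in Dox (Simes adjusted p = 0.000802). A second region of 1q42, chr1:234659351-234659700, had 11 and 66.3 CPM in Control against 2.08 and 3.58 in Dox, a 13.7-fold difference (log2 fold change -3.76, SE 0.652, Simes adjusted p = 0.00296). In both, the Control libraries were far apart, and the lower of them was still above both Dox libraries. The last of the 3 named regions of 1q42, chr1:225960051-225960350, had 23.2 and 52.1 CPM in Control and 3.11 and 7.76 in Dox, 6.92-fold lower.

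In 3 other named regions the Control libraries were closer together than in these. At chr21:45029501-45029850 Control had 24.5 and 42 CPM and Dox 1.56 and 4.18 CPM, 11.6-fold lower (log2 fold change -3.54, SE 0.583, Simes adjusted p = 0.00113). Region chr10:6128351-6128700 in 10p15 had nearly equal replicates, 32 and 36.3 CPM in Control against 4.67 and 4.78 CPM in Dox, 7.22-fold lower (log2 fold change -2.84, SE 0.514, Simes adjusted p = 0.00427). In 1q21, chr1:151042751-151043150 had 22.6 and 29.7 CPM in Control, 6.75 CPM in Dox replicate 1 and 0 in Dox replicate 2. Each of these 3 differences was larger than the spread within either group.

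Chromosome 19 contributed 2 of the 15. On the long arm, chr19:33532101-33532650 in 19q13.11 had 21 and 52.1 CPM in Control and 4.67 and 3.58 CPM in Dox, 8.85-fold lower. On the short arm, chr19:12907351-12907700 in 19p13.2 had 19 and 42.4 CPM in Control and 5.71 and 1.19 CPM in Dox, 8.91-fold lower. At chr14:77506651-77507150 the levels were 29.7 and 57.1 CPM in Control and 5.71 and 3.58 CPM in Dox, 9.34-fold lower. The remaining 6 were chr1:156859901-156860200 (1q23), chr6:75953301-75953700 (6q14), chr8:67579401-67579850, chr15:67155151-67155550, chr15:70403701-70404300 and chr10:111643951-111644400 (10q25). They were 6.7 to 7.92-fold lower. In the region of 10q25 the Control libraries were far apart, at 22 and 66.7 CPM.

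**Figure D2:**
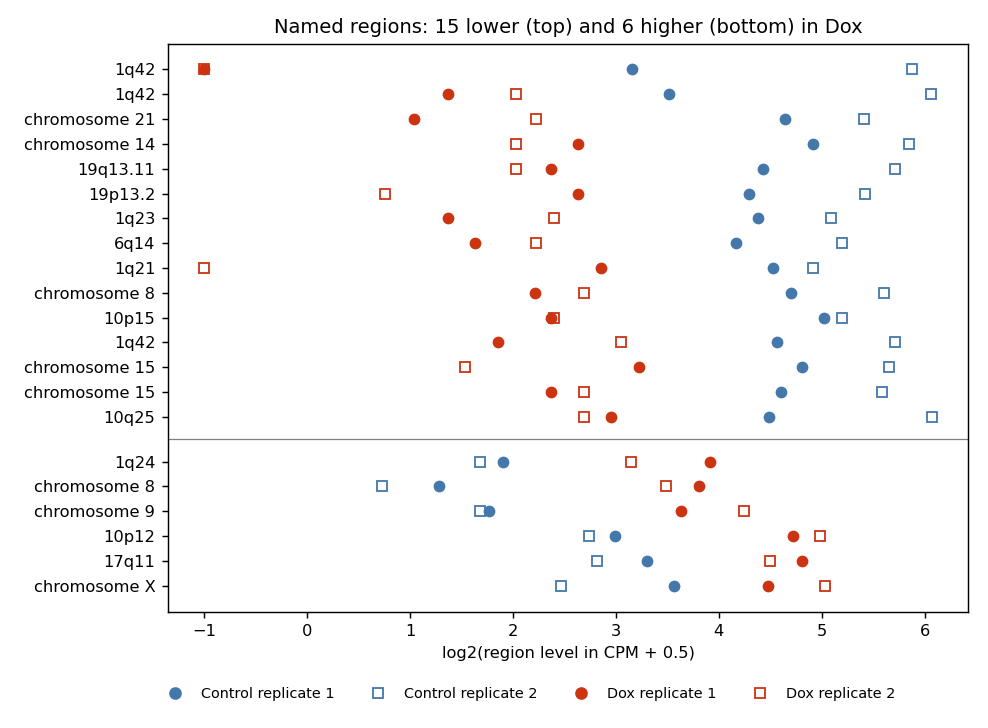
Level of each Control and Dox library, as log2(CPM + 0.5), in the 15 named regions called lower (top) and the 6 called higher (bottom), labelled by band or chromosome. Filled circles are replicate 1 and open squares replicate 2; in the top 2 rows, both in 1q42, Control 1 lies well below Control 2 (8.39 against 58.2 CPM and 11 against 66.3 CPM).

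Only 6 regions were called higher in Dox, all at most 350 bp wide, and in 5 of them a single window passed. Both Dox levels were above both Control levels in 6 of 6, beside the 22.5% of all regions given above. The same libraries chose these regions, so this is a description of them. At chr8:144853851-144854050 Control had 1.94 and 1.16 CPM and Dox 13.5 and 10.7 CPM, a 7.83-fold difference (Simes adjusted p = 0.0123). Region chr9:139948151-139948350 had 2.91 and 2.7 CPM in Control and 11.9 and 18.5 CPM in Dox, 5.43-fold. At chr1:168054701-168054900 in 1q24 the levels were 3.23 and 2.7 CPM in Control and 14.5 and 8.36 CPM in Dox, 3.86-fold. These 3 were low in Control, and their mean Dox levels (12.1, 15.2 and 11.4 CPM) stayed below the median of 17.5 CPM over all regions. Every window had at least 111 counts over the 8 libraries. A weak window with few Control counts is thus in the table only through higher counts in other libraries.

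A second set of 3 was already more open in Control. Region chr10:20318451-20318750 in 10p12 had 7.43 and 6.17 CPM in Control and 25.9 and 31.1 CPM in Dox, 4.19-fold. At chr17:27332901-27333250 in 17q11 the levels were 9.36 and 6.56 CPM in Control and 27.5 and 22.1 CPM in Dox, 3.12-fold. Region chrX:153151751-153152100 had 11.3 and 5.01 CPM in Control and 21.8 and 32.2 CPM in Dox, 3.31-fold. Their Simes adjusted p-values lay close to the threshold (0.0471, 0.0376 and 0.0448). When counts were summed over each region and tested as one value, 3 of the 6 kept an adjusted p under 0.05.

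The losses often took up part of a region. In 120 of the 589 lower regions every window was called on its own, in 145 a single window was, and in 34 none was, since Simes' p pools several windows. The median share of a region's windows that passed was 40%. In the 82 lower regions over 1 kb wide that median was 15.1%, with called windows at a median log2 fold change of -2.65 and the other windows of the same regions at -0.23. With each side of a region, from its centre to its edge, split into 3 equal parts, the strongest window lay in the outermost part in 37 of the 82 (45.1%), against 38.5% of all 3089 regions over 1 kb. Its Control level was 71.5% of the region's peak window, against 58.0%. A window called lower tends to be high in Control, and the other windows are by definition those not called. Both contrasts are therefore partly set by the calls, which chose the regions and the windows, and these values are descriptions only.

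Wide regions as a class moved the other way. Regions up to 300 bp had a median log2 fold change of -0.12 and those of 1000 to 2000 bp 0.13. Both Dox levels were above both Control levels in 17.8% of the first class and 36.1% of the second. The share called lower was nevertheless 1.55% (236 of 15189) up to 300 bp, 2.43% (69 of 2843) from 1000 to 2000 bp and 5.28% (13 of 246) over 2000 bp. A wide region has more windows and counts, and so more chances for a call. The part of window number in these shares was not tested.

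Lower regions were unevenly spread over the chromosomes. The share was 3.17% on chromosome 10 (62 regions), 2.27% on chromosome 19 (123 of 5407), 2.26% on chromosome 12 and 2.16% on chromosome 1 (96 regions), against 1.65% overall. It was 0.172% on chromosome 11 (2 of 1162) and 0.297% on chromosome 8. Chromosomes 4 and 13 had 0 of 628 and 0 of 315. On chromosome 19, a gene-dense chromosome rich in zinc finger gene clusters, 114 of the 4156 long-arm regions (2.74%) and 9 of the 1251 short-arm regions (0.719%) were called lower. The counts per chromosome were not tested against each other.

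The chromatin around the lower regions was also somewhat less open in Dox. Of the 589, 195 (33.1%) had another lower region within 100 kb, while 18.6% of the other regions had a lower region within that distance. Among regions that were not called lower, the median log2 fold change was -0.21 in the 322 within 2 kb of a lower region, -0.17 at 2 to 10 kb (882 regions), -0.14 at 10 to 50 kb (3076) and -0.07 at 50 to 200 kb (5335). It was 0.003 at 200 to 1000 kb (9289) and 0.06 farther away (15305). Within 2 kb, both Dox levels were below both Control levels in 31.4% and above both in 16.8%. Beyond 1000 kb the shares were 19.7% and 25.1%. The shift near lower regions was thus small beside the median of -2.05 in the lower regions themselves, and the sign of the median changed with distance. Neighbouring regions are not independent, and no test was made over them.

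**Figure D3:**
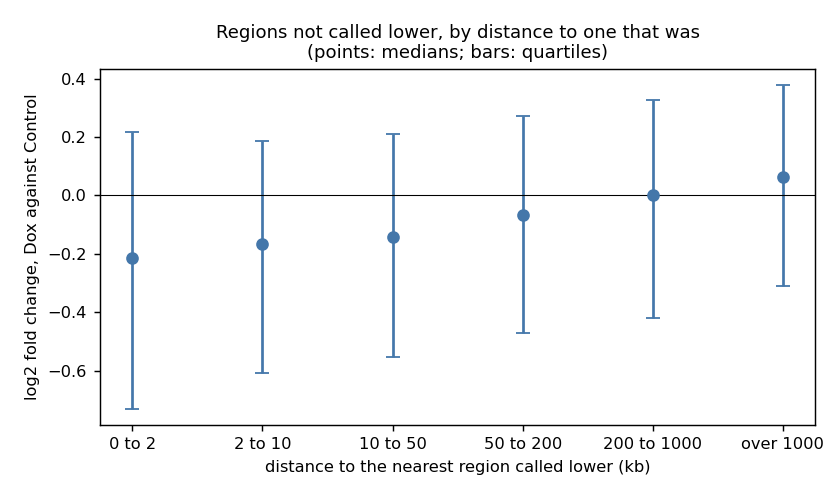
Log2 fold change, Dox against Control, of regions not called lower, grouped by their distance in kb to the nearest region that was (points are medians, bars span the quartiles). The median is -0.21 within 2 kb and 0.06 beyond 1000 kb.

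Counts summed over 1 Mb segments gave a wider view. Of 1542 segments with at least 5 regions, 24 were lower (1.56%) and 22 higher (1.43%) in Dox at an adjusted p under 0.05 (edgeR). With TMM scaling in place of column totals the split was 31 lower and 8 higher, so the number of higher segments depended on the scaling. The median over all segments was 0.04. The lower segments, on 9 chromosomes, had log2 fold changes from -0.75 to -0.24, and the higher ones, on 14 chromosomes, from 0.23 to 0.89. No segment passed without Dox replicate 1 or without Dox replicate 2 (266 of the 1542 had an unadjusted p under 0.05 with all libraries). Without Control replicate 2 the counts were 2 lower and 1 higher, and without Control replicate 1 they were 81 and 108. Control replicate 1 was below Control replicate 2 in 24 of the 24 lower segments and above it in 20 of the 22 higher ones, where 62.3% of all segments had it above. Against Control replicate 1 alone the median of the lower segments was -0.21, and against Control replicate 2 alone -0.48. For the higher segments the medians were 0.20 and 0.38.

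The lower segments held 1196 regions, of which 72 were called lower (6.02%), while 41.7% had both Dox levels below both Control levels and 9.62% had them above. Over all regions these shares were 1.65%, 23.9% and 22.5%. The same libraries chose the segments, so the shares are descriptive. When the windows of called regions were left out of the sums, an alternative chosen after seeing the data, 11 segments were lower instead of 24, so part of the fall in these sums lay in the called regions. Between 37 and 38 Mb of chromosome 19 the summed level was 2508 and 2947 CPM in Control against 2166 and 1934 CPM in Dox (log2 fold change -0.41, SE 0.0721, adjusted p = 0.00146), with 7 of 48 regions called lower. It still passed without Control replicate 2, at -0.29 (adjusted p = 0.00521). Between 150 and 151 Mb of chromosome 1, in 1q21, the levels were 1234 and 1430 CPM in Control and 1014 and 997.8 CPM in Dox (-0.40, SE 0.0715, adjusted p = 0.00146), with 4 of 38 regions called lower. Between 56 and 57 Mb of chromosome 12 the Control libraries nearly coincided, at 2413 and 2436 CPM against 2046 and 2003 CPM in Dox (-0.26, SE 0.0593, adjusted p = 0.0102). In these 3 segments each Dox library was below each Control library.

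The segment from 44 to 45 Mb of chromosome 19 held the most lower regions of any segment, 15 of 196. Its level was 5859 and 7973 CPM in Control and 5358 and 5214 CPM in Dox (-0.39, SE 0.0792, adjusted p = 0.00606). Without Control replicate 2 it was -0.15 (adjusted p = 0.227), so its size rested largely on that library. By count, 6 of the 10 segments with the most lower regions were on chromosome 19, where segments hold many regions (466 between 39 and 40 Mb, against a median of 12 over the segments tested). Of the 10, 3 passed the segment test themselves. The segment from 36 to 37 Mb of chromosome 19 had 12 of 384 regions called lower (3.13%, against 1.65% of all regions) and a summed change of -0.18 (adjusted p = 0.163). That from 39 to 40 Mb had 11 of 466 (2.36%) and a change of -0.24 (adjusted p = 0.0536). A segment could also fall with no region called, as did 3 of the 24. Between 27 and 28 Mb of chromosome 6, where a large cluster of histone genes lies, the levels were 664.1 and 731.2 CPM in Control and 589 and 529.7 CPM in Dox (-0.32, SE 0.0907, adjusted p = 0.0428), with 0 of 32 regions called.

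Of the lower segments, the one with the strongest change rested on 1 of the Control libraries. Between 119 and 120 Mb of chromosome 6, Control replicate 2 had 862.3 CPM, while Control replicate 1 had 361 CPM and the Dox libraries 333.1 and 393.5 CPM (-0.75, SE 0.182, adjusted p = 0.0146). Without Control replicate 2 the log2 fold change was 0.0068. It is the 1 segment of the 24 in which Dox and Control overlapped. Over all segments, both Dox levels lay below both Control levels in 19.5%. In the etoposide-treated cells, 119 to 120 Mb of chromosome 6 had 717.8 and 835.9 CPM in Etop and 378.8 and 459.8 CPM in DoxEtop. The log2 fold change of DoxEtop against Etop was -0.89 (edgeR, adjusted p = 0.00212). Control replicate 1 was thus the only uninduced library at the level of the induced ones. Between 47 and 48 Mb of chromosome 10, a stretch with known segmental duplications, the levels were 1266 and 1983 CPM in Control and 1174 and 1081 CPM in Dox (-0.52, SE 0.109, adjusted p = 0.00629). The segments from 144 to 145 Mb of chromosome 1 (-0.57) and from 91 to 92 Mb of chromosome 2 (-0.55) lie in such stretches too. How reads from near-identical copies were assigned is not given in the sources used here, so these 3 values are uncertain. On chromosome 5, 145 to 146 Mb had 250.9 and 345.9 CPM in Control and 194.6 and 177.3 CPM in Dox (-0.68, SE 0.145, adjusted p = 0.00718), and 173 to 174 Mb had 416.8 and 450.8 CPM against 318.6 and 321.9 CPM (-0.44, SE 0.105, adjusted p = 0.0139).

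The higher segments were mostly at chromosome ends. Of the 22, 17 (77.3%) lay within 5 Mb of a chromosome end, against 158 of all 1542 (10.2%) and 0 of the 24 lower segments. The distance class was chosen after the values were seen. They held 1195 regions, of which 39.1% had both Dox levels above both Control levels, 10.3% had them below, and 5 (0.418%) were called lower. Over all regions these shares were 22.5%, 23.9% and 1.65%. These segments too were chosen by the same libraries, so the shares are descriptive. Between 242 and 243 Mb of chromosome 2 the level was 894.7 and 784 CPM in Control and 1066 and 1143 CPM in Dox (0.39, SE 0.075, adjusted p = 0.00246). From 145 to 146 Mb of chromosome 8 it was 834.3 and 670.6 CPM in Control and 914.8 and 1019 CPM in Dox (0.36, SE 0.083, adjusted p = 0.0102). Between 1 and 2 Mb of chromosome 1 it was 2918 and 2646 CPM in Control and 3411 and 3387 CPM in Dox (0.29, SE 0.0643, adjusted p = 0.00954). Of the 103 regions in that last segment, 49 had both Dox levels above both Control levels and 7 below. Control replicate 1 was nearer to Dox than Control replicate 2 in all 3. The strongest rise of the 22, also within 5 Mb of an end, between 187 and 188 Mb of chromosome 4, rested on 6 regions with 64.9 and 49.4 CPM in Control and 105.9 and 106.9 CPM in Dox (0.89, SE 0.213, adjusted p = 0.0139).

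The same gradient appeared in regions grouped by distance to the end. Those within 2 Mb of a chromosome end took 8.04% and 7.41% of the counts in Control and 8.59% and 8.75% in Dox. In the etoposide-treated cells the shares were 7.83% and 7.95% in Etop and 9.09% and 8.71% in DoxEtop, so the 4 induced libraries had the 4 highest shares. The median log2 fold change, Dox against Control, was 0.19 within 2 Mb, 0.08 from 2 to 5 Mb, -0.0057 from 5 to 10 Mb, -0.05 from 10 to 20 Mb and -0.03 farther in. The share of regions called lower was 0.571% (18 of 3153) within 2 Mb and 1.85% beyond 20 Mb. Chromosome ends are known to be rich in genes and in GC, and the part of base composition in this gradient was not tested.

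The other 5 higher segments lay farther than 5 Mb from an end. Between 39 and 40 Mb of chromosome X the level was 295.1 and 305.8 CPM in Control and 407.9 and 408.4 CPM in Dox (0.44, SE 0.107, adjusted p = 0.0146). Between 105 and 106 Mb of chromosome 6 it was 277 and 268.4 CPM in Control and 365.8 and 399.5 CPM in Dox (0.49, SE 0.113, adjusted p = 0.0102). In both the Control libraries lay close together, well below Dox. Smaller rises of 0.38, 0.35 and 0.30 were found between 5 and 6 Mb of chromosome 18, 31 and 32 Mb of chromosome 14 and 148 and 149 Mb of chromosome 7.

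**Figure D4:**
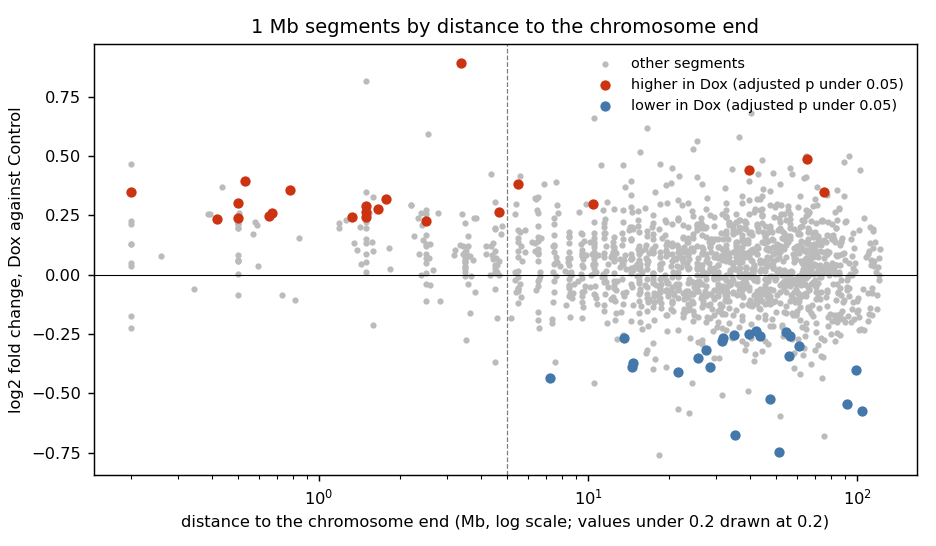
Log2 fold change, Dox against Control, of the 1542 segments of 1 Mb against their distance in Mb to the nearer chromosome end (log axis; the dashed line is at 5 Mb). Coloured points passed an adjusted p under 0.05; 17 of the 22 higher segments and 0 of the 24 lower ones lie left of the line.

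At the scale of whole chromosome arms no change passed. None of the 44 arms had an adjusted p under 0.05 in edgeR, 14 had an unadjusted p under 0.05, and the smallest adjusted p was 0.0708. DESeq2 called 4 arms lower and 3 higher. The long arm of chromosome 19 took 12.5% and 14.3% of the counts in Control and 12.1% and 11.9% in Dox (log2 fold change -0.15, SE 0.0585, adjusted p = 0.152). Against Control replicate 1 alone it was -0.05, and against Control replicate 2 alone -0.25.

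Bands were examined on 8 chromosomes, with commonly used hg19 band limits that are not part of the deposited data, rounded to 0.1 Mb. Of 123 bands, 1 passed (0.813%) and was lower in Dox, and 40 had an unadjusted p under 0.05. The band was 1q21, which holds the epidermal differentiation complex, a cluster of skin barrier genes, among many other genes. It includes the segment from 144 to 145 Mb, called uncertain above, with 418 and 519 CPM in Control and 310 and 319 CPM in Dox. The part of that segment in the change of the band was not tested. The level of 1q21 was 8363 and 8893 CPM in Control and 7410 and 7256 CPM in Dox (log2 fold change -0.23, SE 0.034, adjusted p = 0.00919). It was lower than either Control library, by -0.19 against replicate 1 and -0.28 against replicate 2. Of its 262 regions, 12 were called lower (4.58%), 38.6% had both Dox levels below both Control levels, and 10.7% had them above. Over all regions these shares were 1.65%, 23.9% and 22.5%. The band was chosen by the same libraries, so its shares are descriptive. The adjusted p was 0.113 without Dox replicate 1 and 0.233 without Dox replicate 2. In the etoposide-treated cells 1q21 was lower by -0.20 in DoxEtop against Etop (adjusted p = 0.0158).

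On chromosome 19 the bands of the long arm all had negative estimates and none passed. In 11 of 11 long-arm bands the log2 fold change was below 0, from -0.34 to -0.06, and the smallest adjusted p on the chromosome was 0.0968. Both Dox libraries were below both Control libraries in 10 of the 11, against 35 of the 123 bands tested. Control replicate 1 was below Control replicate 2 in 9 of the 11. Over these bands the median difference from Control replicate 1 was -0.06 and from Control replicate 2 -0.19. The strongest was 19q13.31, with 6911 and 9202 CPM in Control and 6436 and 6256 CPM in Dox (-0.34, SE 0.105, adjusted p = 0.11) and 16 of its 242 regions called lower (6.61%). Against Control replicate 1 it was -0.12, and against Control replicate 2 -0.54. On the short arm, 19p13.3 at the chromosome end was at 0.11 (adjusted p = 0.145), while 19q13.43 at the other end was at -0.06 (adjusted p = 0.193). End bands of other chromosomes had either sign, such as 0.16 in 16p13 and -0.05 in 12p13.

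**Figure D5:**
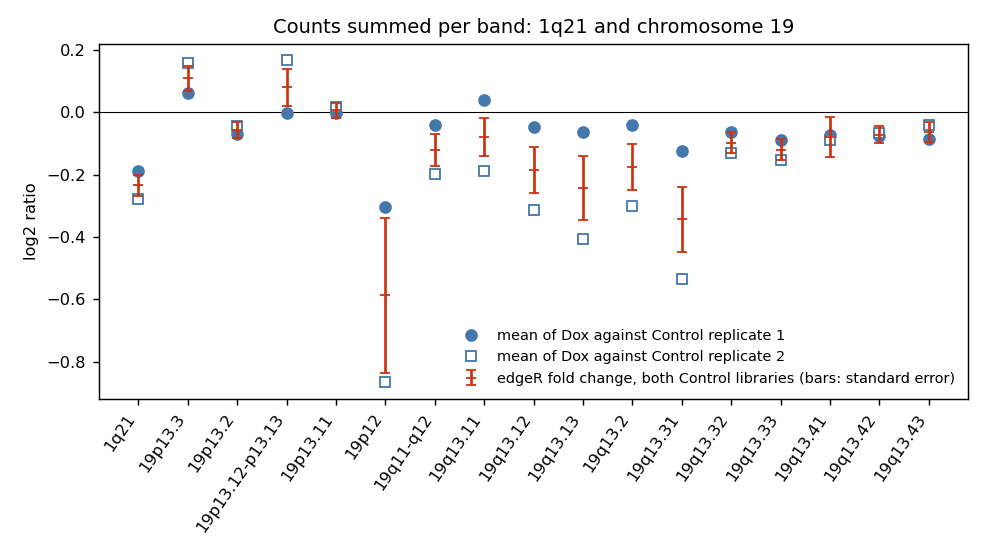
Log2 ratio of the mean Dox level to each Control library (circles replicate 1, squares replicate 2) and the edgeR fold change with its standard error, for 1q21 and the 16 bands of chromosome 19. Band 1q21 lies below 0 against both Control libraries (-0.19 and -0.28), while 19q13.31 is at -0.12 against replicate 1 and -0.54 against replicate 2.

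The 3 bands next in order of p, none of which passed, were 1q22, beside 1q21, at -0.12 (adjusted p = 0.0952), 12q13, which holds the HOXC cluster of developmental genes, at -0.14 (adjusted p = 0.0952), and 2q37, at the end of the long arm of chromosome 2, at 0.18 (adjusted p = 0.0952). Several bands held many lower regions while their sum hardly moved. In 10q21, 5 of 68 regions were called lower (7.35%) with a band change of -0.04, and in 10p15 5.43% were called lower with a band change of 0.03. Band 1q42, which holds 3 of the 15 named regions, had 28 of 917 regions called lower (3.05%) and a change of -0.11 (adjusted p = 0.165). Against Control replicate 1 its change was -0.02, and against Control replicate 2 -0.19.

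The etoposide-treated libraries share no sample with Dox or Control and were not used to choose the regions, though all 8 libraries entered the fit that sets the spread and the total count that windows had to reach. Both DoxEtop levels were below both Etop levels in 503 of the 589 lower regions (85.4%), against 26.4% of all regions, and above both in 9, against 22%. The log2 fold change of DoxEtop against Etop was below 0 in 569 of the 589 (96.6%), against 52.0% of all regions, with a median of -1.46 against -0.03. In that comparison 372 of the 589 (63.2%) were themselves called lower, against 4.96% of all regions. The regions called lower in the fit without Control replicate 1 gave a share of 83.1% with both DoxEtop levels below both Etop levels. Across all 35741 regions the 2 sets of fold changes had a Pearson's r of 0.571, a description over points that share depth and composition.

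Of the 15 named lower regions, both DoxEtop libraries were below both Etop libraries in 14. At chr21:45029501-45029850 the levels were 33.6 and 31.8 CPM in Etop and 2.03 and 2.13 CPM in DoxEtop, close to those without etoposide. The exception was chr14:77506651-77507150, with 46.8 and 17.9 CPM in Etop and 19.3 and 13 CPM in DoxEtop. At chr1:226735451-226735750, where Dox had no counts, DoxEtop had 0 and 6.4 CPM and Etop 46.1 and 22.5 CPM. Of the 6 higher regions, 2 had both DoxEtop levels above both Etop levels, those on chromosome 8 and in 1q24. The region in 10p12 was at 27.7 CPM in Etop replicate 2, as high as in the induced libraries. That in 17q11 was at 29.9 CPM in Etop replicate 1, above Dox (27.5 and 22.1 CPM) and DoxEtop (20.8 and 17.1 CPM). Its log2 fold change of DoxEtop against Etop was -0.28. On chromosome X, Etop replicate 1 had 21.4 CPM and DoxEtop replicate 2 had 19.2 CPM. On chromosome 9, Etop replicate 2 had 5.78 CPM and DoxEtop replicate 1 had 5.59 CPM.

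Most segments followed the same pattern. In 24 of the 24 lower segments both DoxEtop levels were below both Etop levels, against 18.1% of all segments, and in 21 of the 22 higher ones both were above, against 35%. The exception was the strongest rise, between 187 and 188 Mb of chromosome 4. It had 95.2 and 67.1 CPM in Etop and 84.3 and 90.7 CPM in DoxEtop. Between 39 and 40 Mb of chromosome X the rise was 0.11 in DoxEtop against Etop, beside 0.44 in Dox against Control. The difference between the induction effects with and without etoposide was tested as an interaction in edgeR, and 0 windows, 0 regions, 0 segments and 0 bands passed. At an unadjusted p under 0.05 there were 10557 windows, 1223 regions, 37 segments and 0 bands. With 2 libraries per group this does not show that the effects were equal.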

How the data were processed

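FAIRE-seq libraries were prepared with the Illumina TruSeq ChIP kit, and read as 100 bp pairs in 2 runs per library, per the labels' protocols. The submitters' processing notes list Trim Galore, Bowtie2, Bowtie and the hg19 build and give no versions. The deposited table holds the authors' raw counts per window, 1 column per library. How fragments were counted, windows selected and duplicates treated is not given in the sources used here. The input samples were not used here.

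Windows were tested with edgeR 4.0.16 (glmQLFit and glmQLFTest, two-sided) in R 4.3.3, with column totals as offsets, 1 mean per group over all 8 libraries and 4 residual degrees of freedom. The common biological coefficient of variation was 26.4%. Windows were merged over gaps of 100 bp or less. Simes' p per region was adjusted by Benjamini-Hochberg. Sums per region, segment, band and arm used non-overlapping windows and the same test. Region correlations and figures used log2(CPM + 0.5). An exact permutation test of 2 libraries against 2 cannot go below p = 0.333 and was left out. The fitting was tested on simulated data. Alternatives were TMM, DESeq2 1.42.0, limma-voom (limma 3.58.1), loess offsets, other windows, segments and merging, a replicate term and leaving out each library.

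Named regions were the 15 called regions with the strongest fall in summed log2 fold change, among those above the median level whose Dox and Control levels did not overlap, and all called higher. Named segments were taken from the 10 with most lower regions and the 8 strongest in each direction, and not all of these are printed. Others that passed are named as examples chosen after their values were seen. The comparison, the classes and these rules were chosen with earlier results of these data known. Band limits were entered by hand from general knowledge. P-values of the main fits rest on the spread between the 2 libraries of a group, pooled over all 4 groups, Etop and DoxEtop included.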

Additional observations from a re-analysis of the deposited data

How the results depend on the processing

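The lower and higher windows (1961 and 44) and regions (589 and 6) changed with the test. DESeq2 gave 258 and 0 windows and 12 and 0 regions, limma-voom 5 and 0 windows and 0 and 0 regions, and loess offsets 840 and 70 windows and 155 and 26 regions. Windows above the median level gave 1086 lower windows and 332 lower regions. A fit of the 4 Dox and Control libraries alone gave 4168 and 263 windows and 1313 and 56 regions. Counts summed per region gave 320 and 13. TMM gave 656 and 6 regions, and kept the calls of all 21 named regions, of which DESeq2 kept 2 and loess offsets 9. For segments, TMM gave 8 higher, DESeq2 13 higher, and 5 Mb segments 9 lower. Without the windows of called regions, an alternative chosen after seeing the data, 11 segments were lower. DESeq2 called 4 arms lower and 3 higher, and 8 bands lower and 2 higher. Over the fits that left out 1 library, lower windows ranged from 0 to 3269 and higher from 0 to 165, lower regions from 0 to 1038 and higher from 0 to 32, lower segments from 0 to 81 and higher from 0 to 108, lower arms from 0 to 6 and higher from 0 to 23, and lower bands from 0 to 23 and higher from 0 to 24. Bands without Control replicate 2 were 4 lower and 1 higher. Without Control replicate 2 the log2 fold change turned to 0.000146 between 30 and 31 Mb of chromosome 16, 0.016 between 40 and 41 Mb of chromosome 19 and 0.0068 between 119 and 120 Mb of chromosome 6, and without Dox replicate 2 the first was 0.015. Over the fits that left out 1 library, the lowest values of these 3 segments were -0.047, -0.25 and -1.25. The cause of these changes was not tested. The share of lower regions with both DoxEtop levels below both Etop levels was 86.6% with TMM. At 2 libraries per group, a region with few counts can pass only with a strong change.

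With the replicate number as a block, 1337 lower and 16 higher windows, 384 lower and 3 higher regions, 35 lower and 36 higher segments, and 3 lower and 4 higher arms were called. The labels do not say what a number marks, so whether the numbers pair the samples is not known. Same-numbered libraries had correlations of their deviations from -0.076 to 0.137.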
